A study of Rattus norvegicus with 6 samples.

Results

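The cyclic nucleotide phosphodiesterases are the enzymes that break down cAMP and cGMP, and 10 of their genes were examined here in the brain of the SPORTS rat, a hyperactive mutant line, against wild type. Single-colour Agilent arrays were hybridised with total RNA from the brain of 3 SPORTS and 3 wild type rats, 1 rat per array, all male, on a Wistar background, 15 weeks old and sedentary. The labels give the tissue as brain without a region, and name neither the mutated gene nor a litter. Every non-control spot whose transcript accession belonged to Pde10a, Pde1b, Pde7b, Pde2a, Pde8b, Pde1a, Pde1c, Pde4a, Pde4b or Pde4d was kept, which gave 14 of the 30367 distinct probes and 34 spots per array. Probes were matched by RefSeq transcript alone, and 12362 probes, 3985 of them with Ensembl transcript identifiers, had no match and could include further probes of these genes. Of the 14 matched probes, 13 probes of 9 genes gave a signal well above background in every rat of 1 or both groups. These 13 entered the test, among 20657 probes and 11032 named genes in all.

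Cyclic nucleotide levels in a neuron are set by adenylyl and guanylyl cyclases, which make cAMP and cGMP, and by phosphodiesterases, which hydrolyse them. The families differ in substrate and in control: PDE1 enzymes are activated by calcium and calmodulin, PDE2A is stimulated by cGMP, PDE4, PDE7 and PDE8 prefer cAMP, and PDE10A accepts both. In the rodent striatum, Pde10a and Pde1b are abundant in the medium spiny projection neurons, where dopamine receptors act through cAMP, and Pde7b is also enriched there. By that general knowledge of where the genes are expressed, the 10 genes were divided into a striatum-enriched class (Pde10a, Pde1b, Pde7b), a class found in striatum among other forebrain regions (Pde2a, Pde8b) and a class that is broad or mainly elsewhere (Pde1a, Pde1c, Pde4a, Pde4b, Pde4d). No region was measured on these arrays.

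Promoter sequences are shown for the genes lower in SPORTS brain that had an entry in the RefSeq promoter table for the GRCr8 build, Pde10a with 2 start sites and Pde8b with 1. Each sequence is the 250 bases before the start site, 5′ to 3′ on the gene's strand, and capitals mark TGACG or its reverse complement CGTCA, the core of the cAMP response element through which CREB-family factors bind. All 3 lie on the minus strand, the Pde10a windows at chr1:54765669-54765918 (start site 1) and chr1:54501207-54501456 (start site 2), and the Pde8b window at chr2:28116052-28116301.
Pde10a start site 1: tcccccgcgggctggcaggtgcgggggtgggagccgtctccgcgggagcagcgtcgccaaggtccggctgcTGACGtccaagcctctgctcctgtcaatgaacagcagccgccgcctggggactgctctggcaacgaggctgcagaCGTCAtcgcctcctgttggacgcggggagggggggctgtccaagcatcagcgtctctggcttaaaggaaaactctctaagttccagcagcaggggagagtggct
Pde10a start site 2: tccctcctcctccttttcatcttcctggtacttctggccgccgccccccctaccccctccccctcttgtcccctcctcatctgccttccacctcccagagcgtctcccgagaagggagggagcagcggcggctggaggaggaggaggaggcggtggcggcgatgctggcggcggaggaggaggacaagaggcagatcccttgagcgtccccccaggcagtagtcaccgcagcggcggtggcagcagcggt
Pde8b start site 1: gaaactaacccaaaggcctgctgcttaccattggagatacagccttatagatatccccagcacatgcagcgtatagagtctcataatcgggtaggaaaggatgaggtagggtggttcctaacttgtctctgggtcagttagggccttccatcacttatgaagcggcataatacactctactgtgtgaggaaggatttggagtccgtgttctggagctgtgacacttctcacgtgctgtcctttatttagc
Start site 1 of Pde10a held the core at 179 and at 104 bases before the start, and neither start site 2 nor the Pde8b window held it. Over the 18 windows of the 8 member genes with an entry, 5 windows (27.78%) held the core on either strand, matches inside the full element included, against 18.22% of all 33469 windows in the table. Those 5 windows were start site 1 of Pde10a, start sites 1 and 3 of Pde4a and start sites 3 and 4 of Pde4d. Neither Pde4a nor Pde4d was called in the comparison below. The full palindromic element TGACGTCA was in 0 of the 18 windows, against 1.587% of all windows. Pde1b and Pde7b had no entry. These matches are letters in a window and were not tested for factor binding.

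Values are log2 of the processed signal minus the 75th percentile of that array, so 0 is the signal at that percentile, and a difference is SPORTS minus wild type with its standard error from limma, a linear model that shares the spread across probes. The 6 arrays came from 1 slide and 1 scan, had 20325 to 23261 probes well above background, no saturated spot, and correlated at 0.995 to 0.997 within a group and 0.987 to 0.991 between groups. Over all tested probes, 21.1% passed a Benjamini-Hochberg adjusted p of 0.05, 10.1% lower and 11.1% higher in SPORTS brain. Wild type replicates 1 and 2 lay in row 1 of the slide, while wild type replicate 3 and all 3 SPORTS arrays lay in row 2. With row as a block the estimate therefore rests on 1 wild type array, and 4.14% of probes passed lower and 3.59% higher. SPORTS replicate 1 stood apart on some cerebellar markers. There Pcp2 read -0.51 and Car8 read 0.34, where the remaining arrays read -3.75 to -3.54 for Pcp2 and -1.59 to -1.43 for Car8. Cbln1 read 0.34 there, against -1.03 to -0.42 on the remaining arrays. Calb1, Pvalb and Zic1 were also highest on that array, by smaller margins. Its Itpr1 level of 3.94 lay below all wild type arrays, like those of the other SPORTS arrays. Results for the members are therefore also given without SPORTS replicate 1.

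All 3 striatum-enriched phosphodiesterase genes were lower in SPORTS brain, on all 5 of their probes. Pde10a encodes the dual-substrate enzyme of medium spiny neurons, and its main probe, printed at 10 spots per array, read 0.97, 1.03 and 0.89 in the SPORTS brains, against 1.84, 1.64 and 1.62 in the wild type brains. Every SPORTS value lay below every wild type value, and the gap between the groups was larger than the range within either. The mean was 0.96 ± 0.07 in SPORTS and 1.70 ± 0.12 in wild type (SD, n = 3 each), a difference of -0.74 ± 0.07 (95% interval -0.92 to -0.56), or 1.67-fold lower, with a limma adjusted p of 0.00219. The spots of this probe on 1 array had an SD of 0.0346 to 0.0619, smaller than the SD between rats in either group. A separate Pde10a probe for the same transcript read -1.29, -1.18 and -1.34 in SPORTS, against -0.35, -0.57 and -0.41 in wild type. It was 1.77-fold lower, a difference of -0.82 ± 0.07 with a limma adjusted p of 0.00152, and the groups again did not overlap. Both probes also passed with row as a block, at adjusted p values of 0.0287 and 0.0198, and without SPORTS replicate 1, at -0.74 and -0.81 with adjusted p values of 0.0123 and 0.00957 (limma).

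Pde1b encodes a calcium- and calmodulin-activated enzyme that hydrolyses both nucleotides, and it showed the largest difference of the 9 tested members. Its probe read -0.90, -0.87 and -1.04 in SPORTS brain, against 0.12, -0.03 and 0.02 in wild type brain. The 3 SPORTS values sat close together and well below the wild type ones. The mean was -0.93 ± 0.09 in SPORTS and 0.04 ± 0.08 in wild type (SD, n = 3 each), a difference of -0.97 ± 0.07 (95% interval -1.13 to -0.81), or 1.96-fold lower, with a limma adjusted p of 0.000641. Blocking on row gave a difference of -0.95 (adjusted p = 0.0126), and leaving out SPORTS replicate 1 gave -0.99 (adjusted p = 0.00474, limma in each case). Pde10a and Pde1b passed in every alternative run.

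Pde7b encodes a cAMP-specific enzyme whose transcript was read here by a pair of probes. The probe that stands for the gene read -4.44, -4.60 and -4.34 in SPORTS brain, against -3.94, -4.10 and -4.00 in wild type brain. The other read -5.07, -5.21 and -4.78 in SPORTS, against -4.48, -4.47 and -4.30 in wild type. The groups did not overlap on either probe, although SPORTS replicate 3 came nearest to the wild type range on each. The differences were -0.45 ± 0.08 (1.37-fold lower, adjusted p = 0.0131) and -0.60 ± 0.12 (1.52-fold lower, adjusted p = 0.0192, limma). Neither call held with row as a block, where the differences were -0.47 and -0.72 (adjusted p = 0.0934 and 0.0740, limma). With normexp background correction the differences were smaller, at -0.27 and -0.29. Without SPORTS replicate 1 they were -0.46 (adjusted p = 0.0433) and -0.58 (adjusted p = 0.0647), and without wild type replicate 3 they were -0.44 (adjusted p = 0.0506) and -0.54 (adjusted p = 0.0658, limma). Leaving out wild type replicate 1, wild type replicate 2 or SPORTS replicate 2 ended the call of the second probe alone, with adjusted p values of 0.0511, 0.0505 and 0.0595 (limma).

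**Figure D1:**
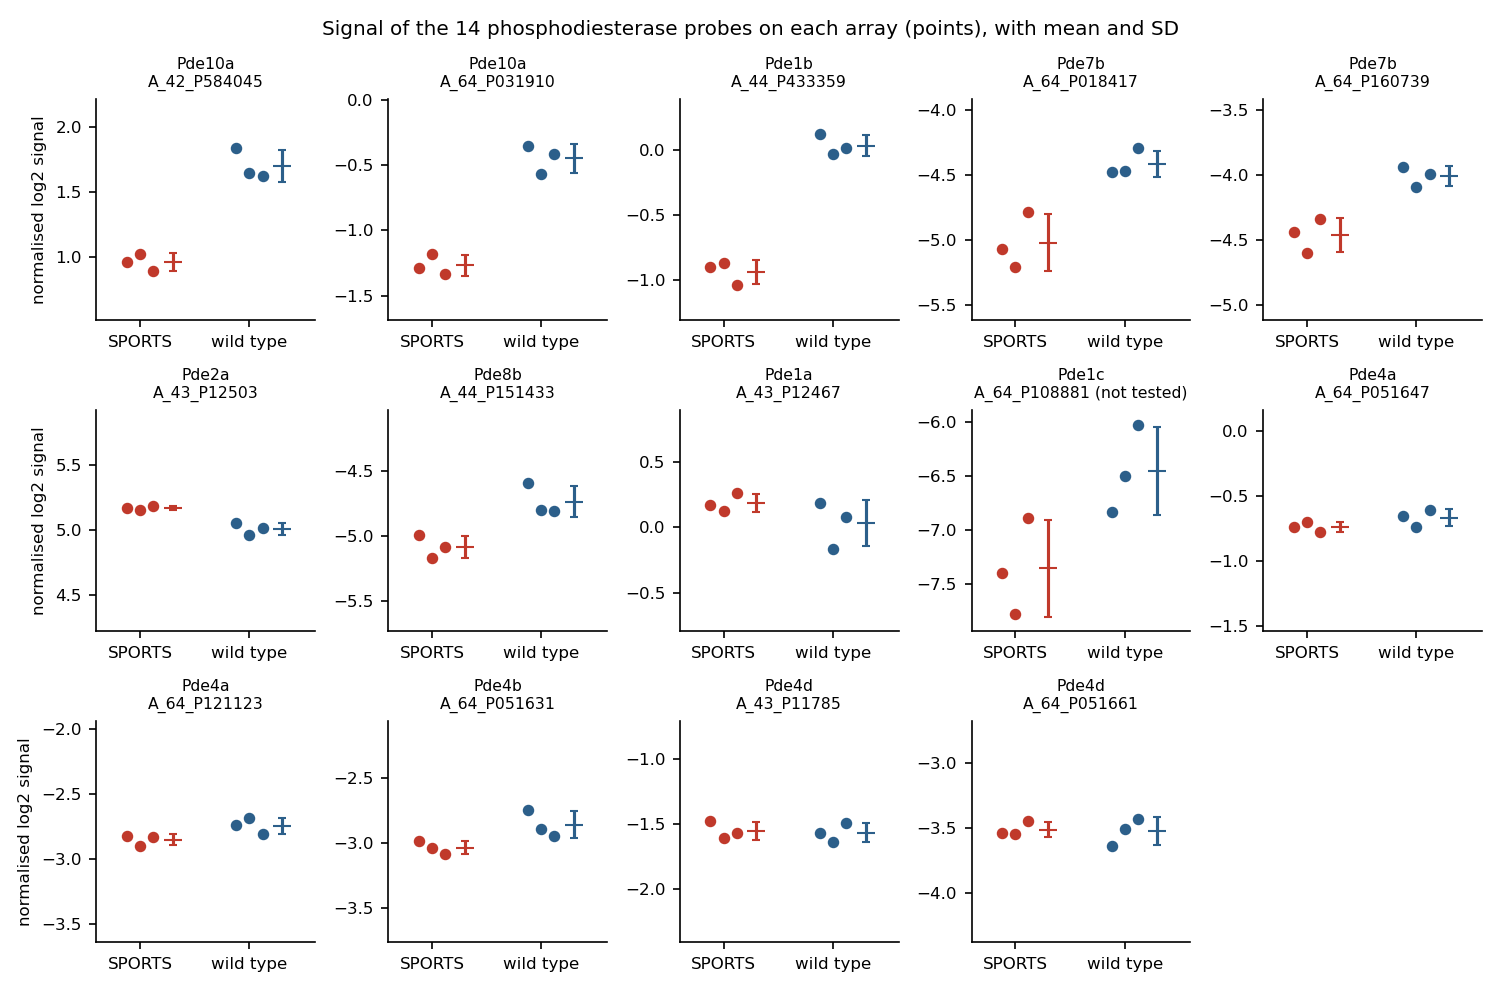
Level of each Pde probe on each array (log2 of the processed signal minus the array's 75th percentile, vertical axis), 1 panel per probe, with SPORTS rats on the left and wild type rats on the right of each panel, 1 point per rat, and the mean and SD of the 3 rats beside them. The SPORTS points lie below all wild type points for Pde10a, Pde1b and Pde7b, and the groups overlap for Pde1a and Pde4d. The Pde1c panel covers a wider span than the others and its probe was not well above background on most arrays.

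The forebrain genes Pde2a and Pde8b moved in opposite directions. Pde2a encodes the cGMP-stimulated dual-substrate enzyme, and its probe read 5.17, 5.15 and 5.18 in SPORTS brain, against 5.05, 4.96 and 5.02 in wild type brain. All SPORTS values were above all wild type values by a narrow margin. Pde2a rose by 0.16 ± 0.04 (95% interval 0.06 to 0.25), or 1.12-fold, with a limma adjusted p of 0.0351. That call was lost in 10 of 16 alternatives, row as a block (0.15, adjusted p = 0.196) and every run that left out 1 array among them, with adjusted p values of 0.0501 to 0.110 in those runs (limma). Pde8b encodes a high-affinity cAMP-specific enzyme, and its probe read -5.00, -5.17 and -5.09 in SPORTS, against -4.60, -4.80 and -4.81 in wild type. The groups did not overlap. Pde8b fell by 0.35 ± 0.08 on the log2 scale, 1.27-fold, with a limma adjusted p of 0.0282. It too was lost in 10 of 16 alternatives, among them row as a block (-0.28, adjusted p = 0.211), quantile normalisation (-0.35, adjusted p = 0.0844) and every run without 1 array except that without SPORTS replicate 1 (-0.39, adjusted p = 0.0463, limma). With normexp background correction the Pde8b difference was -0.16. Pde2a without SPORTS replicate 1 differed by 0.16 (adjusted p = 0.0939, limma).

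None of the 6 tested probes of the broad class passed the limma test, where 21.1% of all tested probes did. They stand for 4 genes, and 1 probe, that of Pde4b, had an unadjusted p under 0.05. Pde1a encodes a further calcium- and calmodulin-activated enzyme, and read 0.17, 0.12 and 0.27 in SPORTS brain, against 0.19, -0.16 and 0.08 in wild type brain. The groups overlapped, and the difference of 0.15 ± 0.10 had a 95% interval of -0.09 to 0.39 (adjusted p = 0.328, limma). It was 0.23 when wild type replicate 1 was left out and 0.05 when wild type replicate 2 was. The PDE4 enzymes are the cAMP-specific family that the antidepressant-like compound rolipram inhibits. Pde4b read -2.99, -3.03 and -3.08 in SPORTS, against -2.74, -2.89 and -2.95 in wild type. Its groups did not overlap, yet the difference was small at -0.18 ± 0.06 (95% interval -0.33 to -0.02, adjusted p = 0.107, limma).

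Pde4a was read by a pair of probes. The gene's main probe read -0.74, -0.70 and -0.78 in SPORTS brain, against -0.66, -0.73 and -0.61 in wild type brain, and the other one read -2.82, -2.90 and -2.83 in SPORTS, against -2.74, -2.68 and -2.81 in wild type. The groups overlapped on the main probe and came close without overlapping on the other. The differences were -0.07 ± 0.05 (95% interval -0.19 to 0.04, adjusted p = 0.342) and -0.11 ± 0.05 (95% interval -0.22 to 0.01, adjusted p = 0.168, limma). Pde4d was also read by a pair of probes, for separate transcript accessions. They read -1.48, -1.61 and -1.57 in SPORTS against -1.57, -1.64 and -1.50 in wild type, and -3.54, -3.55 and -3.45 in SPORTS against -3.64, -3.51 and -3.43 in wild type. The groups overlapped throughout. The differences were 0.02 ± 0.06 (95% interval -0.12 to 0.16, adjusted p = 0.863) and 0.01 ± 0.07 (95% interval -0.15 to 0.17, adjusted p = 0.919, limma). The intervals of both Pde4d probes and of both Pde4a probes do not reach a difference as large as that of either Pde10a probe. Without SPORTS replicate 1 the differences were 0.16 for Pde1a, -0.20 for Pde4b, -0.07 and -0.12 for Pde4a, and -0.02 and 0.03 for Pde4d, and none passed (limma adjusted p of 0.150 to 0.857).

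Pde1c, the remaining calcium- and calmodulin-activated gene, was not tested. Its probe was well above background on 0 of 3 SPORTS arrays and on 1 of 3 wild type arrays, and read -7.39, -7.78 and -6.89 in SPORTS against -6.83, -6.50 and -6.03 in wild type. These are values at the limit of detection, so no fold is given.

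**Figure D2:**
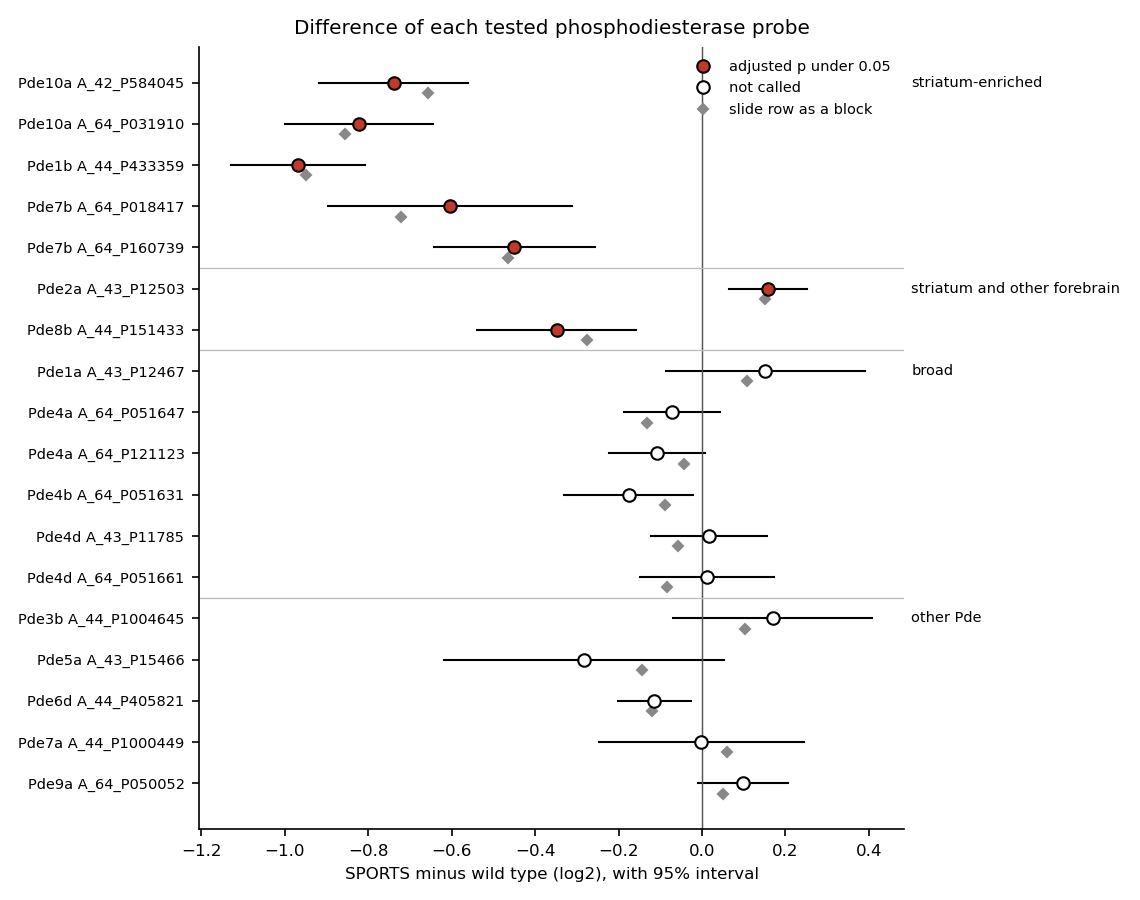
Difference of each tested Pde probe between SPORTS and wild type brain (log2, horizontal axis, SPORTS minus wild type), grouped by class, with the 5 tested probes of other Pde genes below. Circles with bars are the estimate from all 6 arrays and its 95% interval, filled where the limma adjusted p was under 0.05, and grey diamonds are the estimate with slide row as a block. The 5 striatum-enriched probes lie between -0.97 and -0.45 and the 6 broad probes between -0.18 and 0.15.

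Set side by side, the striatum-enriched and broad classes differed on every SPORTS array. Averaged over Pde10a, Pde1b and Pde7b, each gene centred on its wild type mean, the striatum-enriched class stood at -0.70, -0.72 and -0.74 in the SPORTS brains, against 0.10, -0.07 and -0.03 in the wild type brains. The 4 tested broad genes stood at 0.01, -0.04 and -0.03 in SPORTS, against 0.07, -0.09 and 0.02 in wild type, and the groups overlapped. The median difference was -0.74 over the 3 striatum-enriched genes and -0.03 over the 4 broad genes. Over all 11032 tested genes the median difference was 0.01. With row as a block the class medians were -0.66 and -0.07. The division into classes was made with earlier results of these arrays known, so no test of the classes is given.

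Across the 13 tested member probes, 6 were lower, 1 was higher and 6 did not pass, against 10.1% lower and 11.1% higher among all probes. With row as a block 3 probes remained lower, those of Pde10a and Pde1b, and none was higher. By gene, 4 of 9 (44.4%) were lower and 1 was higher, where 24.3% of all tested genes passed, 11.4% lower and 12.9% higher. At a minimum of 1.5-fold, 4 member probes were lower and none higher, against 1.94% and 2.67% of all probes. The groups did not overlap for 8 probes with SPORTS lower and for 1 with SPORTS higher, where 20.5% and 21.4% of all probes had such groups. Ordered by difference from the most negative, Pde1b was number 117, Pde10a 200, Pde7b 453 and Pde8b 680 of 11032 genes.

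Markers of striatal projection neurons moved with the striatum-enriched phosphodiesterases. All 13 tested markers of that list of 16 were lower in SPORTS brain, where 11.4% of all tested genes were. The median difference of these markers was -1.83, with a range of -3.08 to -0.53, and the median was -1.74 with row as a block. Their summed linear level, relative to the 75th percentile of each array, was 18.3 to 19.6 in SPORTS and 43.7 to 49.0 in wild type. This list was chosen with earlier results of these arrays known, so its direction is not independent evidence. Rgs9, a G protein regulator of striatal neurons, differed by -2.77. The 3 striatum-enriched phosphodiesterases thus differed by less than the median of those markers. Drd1 was well above background on 1 of 3 SPORTS arrays and on 3 wild type arrays, so it entered the test through wild type alone. Gpr6 was above background on no array, and Bcl11b and Meis2 had no matched probe. In bulk brain RNA, fewer cells of a type and less RNA per cell cannot be told apart.

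The other marker lists were mixed. Over all tested genes 11.4% were lower and 12.9% higher, so a single call in so short a list says little. Of 7 tested pan-neuronal markers 2 were lower and 1 higher (median -0.10), with a summed level of 52.3 to 52.7 in SPORTS and 54.7 to 56.4 in wild type. Of 7 tested cortical and hippocampal markers 2 were lower (median -0.11), and of 7 tested cerebellar markers 1 was lower. Astrocyte markers were higher for 3 of 7 (median 0.25). Slc1a3 and Slc1a2 each had 1 of 2 probes lower, while every tested probe of Aqp4, Aldh1l1 and S100b was higher. Oligodendrocyte markers were higher for 2 of 6 and endothelial markers for 1 of 4, while 1 of 6 microglial markers was lower. Of 6 fibroblast and meningeal markers 5 were higher and 1 lower (median 0.74). Among the higher ones, Lum was well above background on 3 SPORTS arrays but on 2 wild type arrays, so it entered the test through SPORTS alone. With row as a block no pan-neuronal, cortical and hippocampal, cerebellar, astrocyte or oligodendrocyte marker passed. The blocked medians were 0.96 for fibroblast and meningeal, 0.04 for microglial and 0.13 for endothelial markers. Flt1, an endothelial marker that did not pass without the block, differed by -0.54, against -1.46 with it. Wild type replicate 3, on which the blocked estimate rests, read -2.30, against -3.53 and -3.81 in the other wild type rats. The SPORTS rats read -3.67, -3.84 and -3.77. The part of any of these cell types in the phosphodiesterase differences was not tested.

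**Figure D3:**
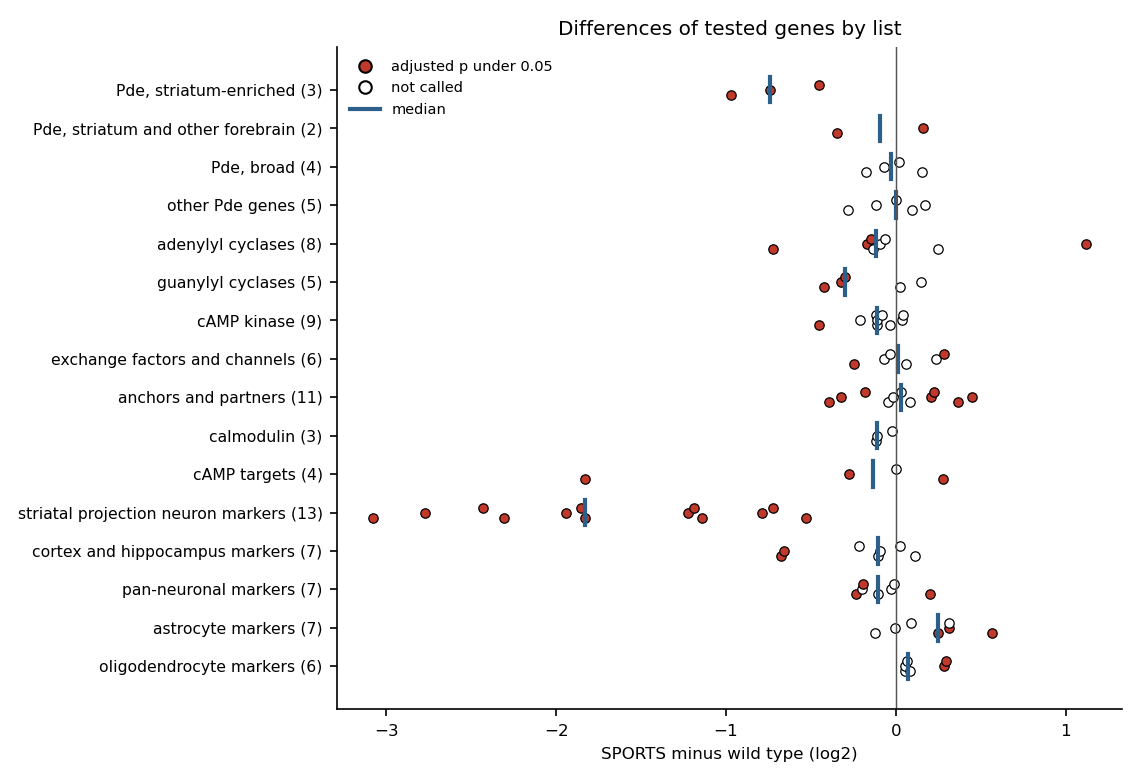
Differences of single tested genes (log2, SPORTS minus wild type, horizontal axis) by list: the Pde classes, the other Pde genes, 7 groups of the cyclic nucleotide pathway and 5 lists of cell type markers, with 1 point per gene, filled where the limma adjusted p was under 0.05, and a bar at each list's median. The striatal projection neuron markers all lie below 0, and the broad Pde genes lie around 0.

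The rest of the phosphodiesterase superfamily showed no call. Of 14 further Pde genes listed, 11 had a matched probe and 5 had a tested one. None passed the limma test, where 24.3% of all tested genes passed, and 1 had an unadjusted p under 0.05. That was Pde6d, a prenyl-binding protein named for the photoreceptor enzyme, at -0.15, -0.22 and -0.15 in SPORTS against -0.07, -0.06 and -0.05 in wild type. The groups did not overlap, with a difference of -0.11 ± 0.04 (adjusted p = 0.0741), which passed under a median shift and under trended and robust variances (adjusted p = 0.0280 and 0.0492, limma). Pde9a, a high-affinity cGMP enzyme, differed by 0.10 ± 0.04 (adjusted p = 0.178, limma). Pde5a, the cGMP-specific enzyme that sildenafil inhibits, differed by -0.28 ± 0.14 (adjusted p = 0.207), and by -0.42 without SPORTS replicate 1 (adjusted p = 0.0391, limma). SPORTS replicate 1 was the SPORTS rat with the highest Pde5a level, -4.66 against -5.12 and -5.05 in the other SPORTS rats and -4.56, -4.62 and -4.80 in wild type. Pde3b and Pde7a had adjusted p values of 0.280 and 0.995 (limma).

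Among 61 listed genes that make, sense or anchor cyclic nucleotides, 47 were tested, of which 13 were lower, 7 higher and 27 did not pass, with a median difference of -0.07, where 11.4% of all tested genes were lower and 12.9% higher. With row as a block 8 were lower and 1 was higher, where 4.31% of all tested genes were lower and 4.03% higher. The enzymes that make the nucleotides included both directions. Adcy5, the main adenylyl cyclase of striatal neurons, read 0.77, 0.95 and 0.86 in SPORTS brain against 1.68, 1.497 and 1.58 in wild type brain. It was 1.65-fold lower, a difference of -0.72 ± 0.07 (adjusted p = 0.00195, limma), close in size to that of Pde10a. Adcy10, the bicarbonate-sensitive soluble cyclase, read -3.78, -3.60 and -3.72 in SPORTS against -4.84, -4.73 and -4.89 in wild type. It was 2.18-fold higher, a difference of 1.12 ± 0.07 (adjusted p = 0.000431, limma), and 0.62 with normexp background correction. Adcy3, a cyclase known from olfactory neurons and primary cilia, was lower by a small margin (-0.17 ± 0.04, adjusted p = 0.0371, limma), a call that ended on blocking for row (adjusted p = 0.264) or on leaving out any 1 array except wild type replicate 3 (adjusted p up to 0.112, limma). Of 8 tested adenylyl cyclases, 3 were lower and 1 higher.

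Of 5 tested guanylyl cyclase genes 3 were lower, where 11.4% of all tested genes were. All 3 encode subunits of the nitric oxide-sensitive soluble enzyme. With row as a block they differed by -0.47 (Gucy1a1), -0.25 (Gucy1a2) and -0.34 (Gucy1b1). Gucy1a1 read -1.76, -1.63 and -1.75 in SPORTS against -1.26, -1.38 and -1.24 in wild type. The groups did not overlap, and the difference was -0.42 ± 0.06 (adjusted p = 0.00592, limma). Gucy1a2 differed by -0.32 ± 0.06 with both probes called (adjusted p = 0.0171), a call that ended when wild type replicate 1 or 2 was left out (adjusted p up to 0.0520) or row was blocked (adjusted p = 0.147, limma). Gucy1b1, the shared beta subunit, differed by -0.30 ± 0.04 (adjusted p = 0.00382, limma), with 1 of its 2 probes called. The membrane receptors Npr1 and Npr2 did not pass, at 0.03 and 0.15.

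Downstream, 1 of 9 tested genes of the cAMP-dependent kinase was lower, where 11.4% of all tested genes were. That was Prkar2b, the regulatory subunit RII beta, at 0.84, 0.93 and 0.89 in SPORTS against 1.43, 1.31 and 1.28 in wild type. It differed by -0.45 ± 0.05 without overlap of the groups (adjusted p = 0.00386, and 0.0466 with row as a block, limma). The kinase inhibitor gene Pkia differed by -0.21 (adjusted p = 0.0834) and passed with row as a block (-0.34, adjusted p = 0.0493, limma), which made 2 of 9 there. Rapgef3, the cAMP-activated exchange factor Epac1, differed by 0.28 ± 0.07 (adjusted p = 0.0441, 0.292 with row as a block, and up to 0.123 when any 1 array was left out, limma). Where 11.4% of all tested genes were lower and 12.9% higher, 3 of 11 tested anchors and partners were lower and 4 higher. Of these, Pde4dip, a centrosomal and Golgi protein that binds PDE4D, differed by -0.39 ± 0.05 (adjusted p = 0.00373, limma). The kinase anchors Akap12 and Akap7 were higher, by 0.45 ± 0.07 (adjusted p = 0.0105) and 0.36 ± 0.07 (adjusted p = 0.0211), and neither passed with row as a block (adjusted p = 0.0942 and 0.119, limma). The Akap7 difference was 0.21 with normexp background correction, and its call held only without wild type replicate 2 among the runs that left out 1 array (adjusted p up to 0.0726, limma).

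Calm2 and Calm3 encode calmodulin, which activates the PDE1 enzymes. Their main probes did not pass the limma test, with differences of -0.12 for Calm2 and -0.02 for Calm3, and 1 of the 3 Calm2 probes passed, lower in SPORTS. The target with the largest difference was Ppp1r1b, which encodes DARPP-32, the phosphatase regulator that the cAMP-dependent kinase phosphorylates in medium spiny neurons. It read 1.11, 1.23 and 1.08 in SPORTS against 3.09, 2.95 and 2.87 in wild type, 3.56-fold lower, a difference of -1.83 ± 0.07 (adjusted p = 0.000135, limma). Crem, a cAMP-responsive transcription factor, was higher on all 4 of its tested probes, by 0.28 ± 0.04 on the main one (adjusted p = 0.00823, and 0.0703 with row as a block, limma). Crtc1, a CREB coactivator, differed by -0.27 ± 0.05 (adjusted p = 0.0145, 0.115 with row as a block, and 0.0662 without SPORTS replicate 2, limma). Adcy5 and Ppp1r1b also stand in the striatal marker list above.

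To place the striatum-enriched genes among all others, the 11031 other tested genes were ordered by their distance from the member. The distance was the root mean square difference of log2 values, centred on each gene's mean over the 6 arrays. Genes whose symbol begins with LOC or RGD were passed over when the nearest were named. For Pde10a the nearest were Kcnq3, a subunit of the M-type potassium channel, at 0.0406, Scube1, a secreted and cell surface glycoprotein, at 0.0427, and Ngef, a guanine nucleotide exchange factor, at 0.0491. These differed between SPORTS and wild type by -0.73, -0.75 and -0.75. For Pde1b the nearest were Dgkb, the beta isoform of diacylglycerol kinase, at 0.0323, Trim9, a brain ubiquitin ligase, at 0.0450, and Nudcd1 at 0.0482, with differences of -0.93, -0.92 and -0.95. For Pde7b the nearest were Nox1, an NADPH oxidase, at 0.0394, Ebpl at 0.0445 and Rpl3l, a ribosomal protein L3 paralogue, at 0.0469, with differences of -0.44, -0.38 and -0.42. Some of these genes were dim. Rpl3l read -6.13 to -5.73 in SPORTS and -5.59 to -5.45 in wild type, near the detection limit. Nudcd1 read -5.28 to -5.02 in SPORTS and -4.25 to -4.12 in wild type. The measure uses the same 6 arrays as the comparison, so it mainly orders genes by having a difference of like size.

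**Figure D4:**
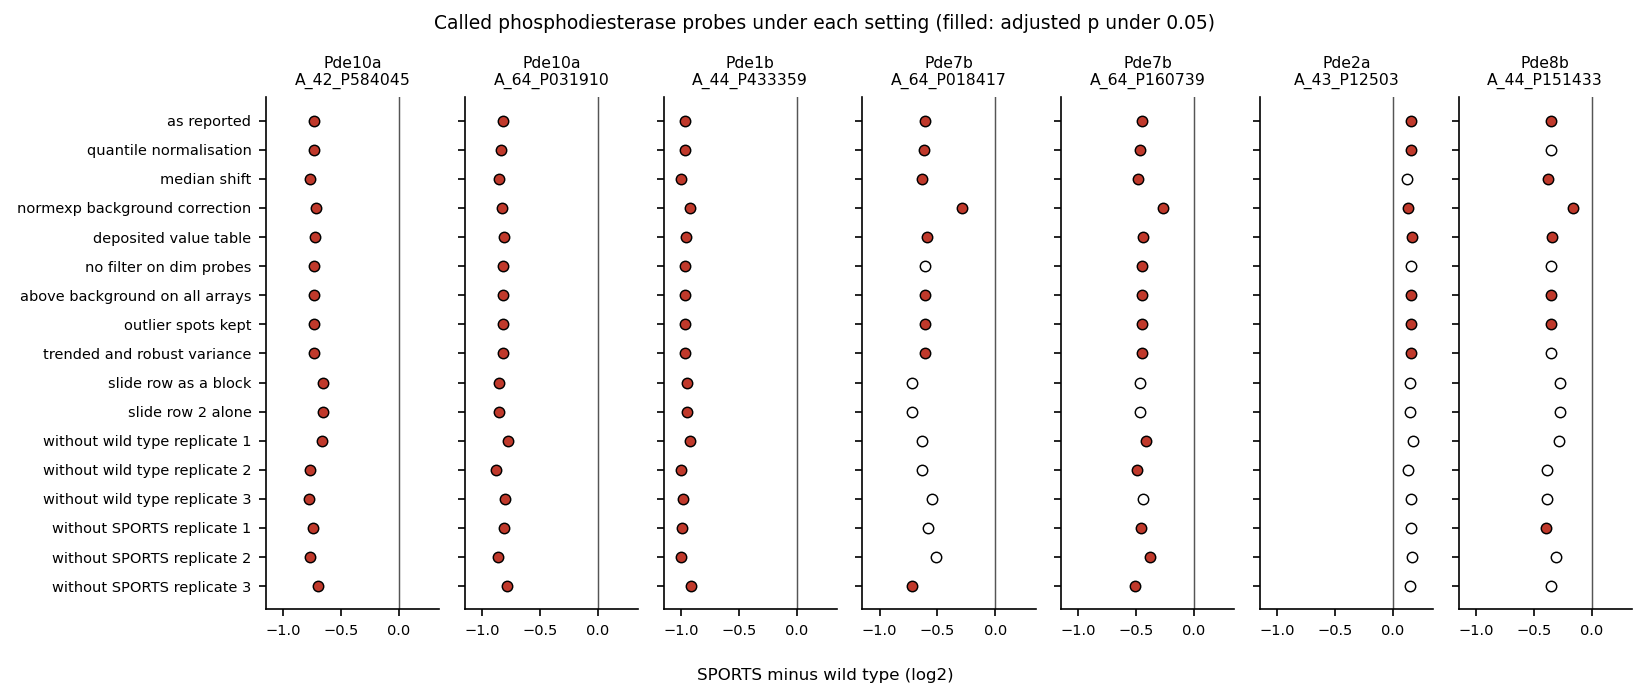
Difference between SPORTS and wild type brain (log2, horizontal axis) for the probes of the striatum-enriched and forebrain Pde genes under each processing alternative (vertical axis), with filled points where the limma adjusted p was under 0.05. Pde10a and Pde1b stay filled in every row, while Pde2a and Pde8b each lose the call in 10 of 16 alternatives.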

How the data were processed

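Brain RNA of 3 SPORTS and 3 wild type rats was hybridised to single-colour Agilent arrays, 1 slide with 62976 spots per array. The deposited scanner files hold intensity values that the authors extracted with Agilent Feature Extraction 10.10.1.1, per the submitters' processing notes. The authors' deposited value table holds the processed signal times 1 factor per array (1.38 to 1.47), also as intensity, and served as an alternative. Here, outlier spots (3075 values) and control spots were left out, log2 values of the deposited intensity were averaged over the spots of each probe, and the 75th percentile over the 58717 non-control spots was subtracted. A probe entered the test if a share above 0.5 of its spots was called well above background in each rat of 1 or both groups, and 2 probes without a value were left out. The main test was limma 3.58.1 (lmFit and eBayes, two-sided) in R 4.3.3, with Benjamini-Hochberg adjustment over all 20657 tested probes and a threshold of 0.05. It was tested on simulated data.

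Probes were named by transcript accession through RefSeq, which gave 13089 tested probes a symbol, and of 1888 genes with several tested probes the one with the highest mean signal was used. Every member probe was named. Other Pde genes were named if called or among the 3 smallest p, pathway genes if called, at most 3 per group by size, plus Adcy5 and Ppp1r1b. Named outside these rules were Npr1, Npr2, Pkia, Calm2 and Calm3, whose main probes were not called, and further Pde genes. Some genes of these lists are not reported here by name. The members, classes and lists were chosen with earlier results of these data known. Precision is limited by the 6 arrays. The labels do not say that rats of a group came from separate litters, and replicates are numbered by accession, with no pairing. The alternatives tried were normexp correction, quantile normalisation, a median shift, the deposited table, probe and spot filters, trended and robust variance, slide row, a fold minimum, probe averaging, the class of Pde2a and Pde8b, and leaving out each array.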

Additional observations from a re-analysis of the deposited data

How the results depend on the processing

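No result changed direction past the threshold in any alternative. The 7 called member probes (6 lower, 1 higher) became 4 with no filter on dim probes, 3 with slide row as a block, 3 in row 2 alone, 4 at a 1.5-fold minimum, and 3 to 5 when 1 array was left out. A median shift gave 6 lower and 0 higher. The other Pde genes called (0) became 1 under the median shift, 1 under trended and robust variances, and 0 to 1 when 1 array was left out. The 20 called pathway genes (13 lower, 7 higher) became 11 with no filter, 9 with the block, 4 in row 2 alone and 10 to 13 when 1 array was left out, and the median shift gave 16 lower and 5 higher. The cause was not tested, but the block and row 2 alone rest on 1 wild type array, and no filter adds probes to the adjustment. The striatum-enriched median (-0.74) was -0.45 with Pde2a and Pde8b counted in the class, and otherwise -0.78 to -0.66. The broad median was -0.07 to 0.01. Over all probes, 4364 calls became 2343 with no filter, 1597 with the block, 1147 in row 2 alone and 2298 to 3183 when 1 array was left out, and the median shift turned 2081 lower and 2283 higher into 2654 and 1953. No paired analysis was possible because the groups share only 1 of the numbers in their sample titles, and no label says that a number marks a shared litter or day. Dim probes, those of Pde7b and Pde8b among them, had their differences lowered by more than 1.5 times under normexp correction. The Pde5a difference went from -0.28 to -0.13 there. Those of Pde4b and of the dimmer Pde4a probe went from -0.18 to -0.10 and from -0.11 to -0.07.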

Other observations

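Some phosphodiesterase probes outside the comparison lay near the detection limit, and their values are given without a fold or a test. Pde11a, a dual-substrate enzyme known from the ventral hippocampus, was well above background on 2 of 3 SPORTS and 2 of 3 wild type arrays, at -5.47, -5.59 and -5.16 in SPORTS and -5.75, -5.61 and -5.90 in wild type. Pde8a, a cAMP-specific enzyme, was above background on 1 SPORTS and 2 wild type arrays, and Pde3a, a cGMP-inhibited enzyme of heart and vessels, on 1 array of each group. Of the photoreceptor genes, Pde6a was above background on no array, Pde6b on 1 SPORTS array and Pde6h on 2 arrays of each group. A further Pde7a probe was above background on 0 SPORTS and 2 wild type arrays, at -6.03, -6.55 and -7.23 in SPORTS and -5.96, -5.85 and -6.12 in wild type, while the tested Pde7a probe read -2.22, -2.08 and -2.21 in SPORTS and -1.96, -2.31 and -2.23 in wild type.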
